A study of Mus musculus with 4 samples.

Results

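The mitochondrial ribosomal protein genes were taken from the deposited table as its protein-coding rows whose names begin with Mrps or Mrpl and a number. There were 78 such genes of 54149 rows, 29 with Mrps names and 49 with Mrpl names, and 5 pseudogene rows of the same names stayed out. With a mean of at least 1 FPKM (fragments per kilobase of listed gene length, relative to a library total) over the 4 libraries, 75 of them entered the test. Liver RNA came from adult females of the strain C57BL/6 x 129S4/SvJae, either wild-type or with a liver-specific knockout of Utx, the histone H3 lysine 27 demethylase listed as Kdm6a. All mice, wild-type included, had been fasted for 16 h and injected intraperitoneally with acetaminophen (APAP) at 300 mg/kg, so every value describes drug-treated liver. Each group had 2 libraries and each library was a pool of RNA from 2 mice, so n = 2 pools per group and p-values measure only the spread between pools. The time from injection to collection, like the exact age and the means of deleting Utx, was not given in the sources used here.

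Mitochondria make a small set of respiratory chain proteins from their own genome, on ribosomes of their own. Those ribosomes, here called mitoribosomes, join rRNAs transcribed inside the organelle with proteins that are encoded in the nucleus, made in the cytosol and imported. Hepatocytes are rich in mitochondria, and the reactive metabolite of acetaminophen binds mitochondrial proteins in these cells.

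The mitochondrial ribosomal protein genes lay slightly and broadly higher in the Utx knockout pools, and none of them passed the test alone. By limma with Benjamini-Hochberg adjustment over 11900 genes, 0 of 75 had an adjusted p under 0.05, against 4.74% of all tested genes (1.6% called higher and 3.14% called lower). Voom on recovered reads also called 0 of the 75, against 9.32% of its tested genes. The smallest adjusted p was 0.0684, for Mrpl49. At an unadjusted p under 0.05, 24 of 75 were higher in the knockout and 0 were lower. Over all tested genes 12.7% were higher and 14.4% lower by that measure. The count of 24 fell when a library was left out: to 13 without wild-type pool 1, 7 without wild-type pool 2, 7 without knockout pool 1 and 8 without knockout pool 2. As shares of the 75 these are 17.3%, 9.33%, 9.33% and 10.7%, against 9.496%, 10.3%, 7.27% and 9.62% of all tested genes. Except without wild-type pool 1, these shares lay near the background. The calls over all genes behind the 4.74% also fell, from 190 higher and 374 lower to 10 and 20, 0 and 0, 3 and 2, and 51 and 183, in the same order.

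Both knockout pools lay above both wild-type pools for 58 of the 75 genes (77.3%), against 31.6% of all tested genes and 33.7% of the protein-coding ones. The groups were separated in the other direction for 5 genes (6.67%), against 29.9% of all tested genes, and they overlapped for 12. The log2 fold change, knockout minus wild-type on log2(FPKM + 0.5), was above 0 for 66 of 75 (88.0%), against 51.4% of all. The genes share libraries, so these counts are not independent observations. The median log2 fold change was 0.22, a fold of 1.17, with the middle 50% of genes between 0.12 and 0.34, and the median over all tested genes was 0.01. The median half-width of the 95% confidence interval of 1 gene was 0.30 on the same scale, wider than the median difference itself.

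In summed FPKM the 78 genes gave 1233 and 1198 in the wild-type pools and 1434 and 1442 in the knockout pools. The means were 1215 ± 24.8 (SD, n = 2) and 1438 ± 6.17 (SD, n = 2), a ratio of 1.18. The same genes took 0.248% and 0.223% of recovered reads in wild-type, and 0.283% and 0.296% in knockout. On both scales the knockout pools were above the wild-type pools, without overlap. A two-sided exact permutation test of the summed FPKM gave p = 0.333, the smallest that 2 pools against 2 allow.

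**Figure D1:**
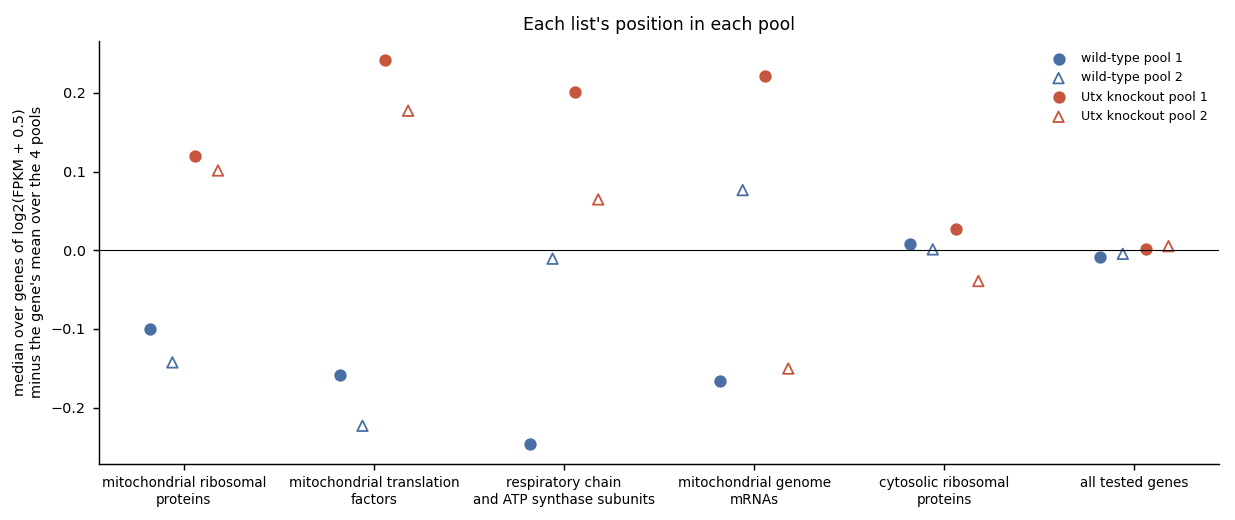
Median over the genes of each list of log2(FPKM + 0.5) minus the gene's own mean over the 4 pools (vertical axis, log2 units), for 6 gene lists. Filled circles are pools numbered 1, open triangles pools numbered 2, blue wild-type and red knockout. The mitochondrial ribosomal proteins sit at -0.10 and -0.14 in wild-type and at 0.12 and 0.10 in knockout, while all tested genes stay near 0.

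The depth was similar in all libraries, with 16330451 to 17804730 recovered reads. Kdm6a was measured at 3.40 and 3.85 FPKM in wild-type and 2.20 and 2.12 FPKM in knockout (log2 fold change -0.63, adjusted p = 0.0715), in whole liver that holds cells other than hepatocytes. Hepatocyte markers summed to 42328 and 52320 FPKM in wild-type and 50420 and 38356 FPKM in knockout, and 0 of 12 were called (median log2 fold change 0.06). Neutrophil markers moved with genotype, at summed levels of 434 and 546 FPKM against 196 and 203 FPKM. Of 11 tested, 5 were called lower (median -1.45), against 3.14% of all tested genes. Most of each sum was Lcn2, at 312 and 358 FPKM against 154 and 165 FPKM. Camp, below the filter, lay the other way, at 0.156 and 0 FPKM against 0.518 and 1.00 FPKM. Sinusoidal endothelial markers summed to 113 and 106 FPKM against 79.0 and 85.7 FPKM, with 0 of 12 called and a median of -0.24. Both knockout pools were below both wild-type pools for 7 of these 12 (58.3%), against 29.9% of all tested genes. Kupffer cell and macrophage markers summed to 522 and 428 FPKM in wild-type and 336 and 530 FPKM in knockout, with a median of -0.13. Of these 14 markers 1 was called lower, Cd163 (log2 fold change -0.80, adjusted p = 0.0467), and 12 had overlapping groups. Cholangiocyte markers, mostly Spp1, summed to 267 and 104 FPKM against 43.5 and 21.0 FPKM, with 1 of 4 tested called lower. Of the stellate cell and fibroblast markers 0 of 9 tested were called (median -0.04), and only 1 lymphocyte marker passed the filter. No marker on these lists, those below the filter included, was listed at 0 in all pools. Their part in the difference was not tested, and in bulk liver fewer cells of a type and less RNA per cell cannot be told apart.

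The proteins of the large subunit, which forms peptide bonds, gave 50 tested genes. Of these, 18 were higher at an unadjusted p under 0.05 and 0 lower, against 12.7% and 14.4% of all tested genes. In 39 (78.0%) both knockout pools were above both wild-type pools, against 31.6% of all, and the median log2 fold change was 0.24. Its proteins with a bacterial homologue had a median of 0.28 over 31 genes, with 13 higher at an unadjusted p under 0.05. Its mitochondria-specific proteins had a median of 0.22 over 19 genes, with 5 higher by that measure. Whether these medians differ was not tested.

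Mrpl49, a mitochondria-specific protein of the large subunit, had the smallest p among the genes. Its gene lies on chromosome 19 from 6053630 to 6057751 on the minus strand (GRCm38, as the table lists it). It was measured at 14.4 and 13.6 FPKM in wild-type and 21.0 and 19.5 FPKM in knockout. The lowest knockout pool was above the highest wild-type pool, and the log2 fold change was 0.52 ± 0.11 (SE, limma adjusted p = 0.0684). With protein-coding genes alone in the fit it was called, at an adjusted p of 0.0485. That fit called 408 genes higher and 606 lower of 10165, and Mrpl49 was the only call among the 75.

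Mrpl12, a protein of the flexible stalk that recruits translation factors, is also known to bind the mitochondrial RNA polymerase. It lies on chromosome 11 from 120484613 to 120489065 on the plus strand. It stood at 39.8 and 39.9 FPKM in wild-type and at 54.8 and 55.6 FPKM in knockout. Its replicate pools differed by less than 1 FPKM in both groups, and its log2 fold change was 0.46 ± 0.10 (SE, adjusted p = 0.0745). The other stalk proteins were closer together: Mrpl11 was at 9.73 and 10.2 FPKM against 12.3 and 12.4 FPKM. Mrpl10, the base of the stalk, was at 27.5 and 21.9 FPKM against 29.8 and 25.9 FPKM, with overlapping groups.

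Mrpl55, a large-subunit protein with a bacterial homologue, lies on chromosome 11 from 59202486 to 59206134 on the plus strand. It was measured at 13.4 and 14.9 FPKM in wild-type and 19.7 and 21.2 FPKM in knockout. The groups did not overlap, and the log2 fold change was 0.52 ± 0.11 (SE, adjusted p = 0.0773).

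The promoter-side sequences of these 3 genes, the ones with the smallest p, are shown so that their starts can be compared. Each is the 100 bases before the RefSeq start on GRCm38.p6, written 5′ to 3′ on the gene's strand, at chr19:6057756-6057855 (minus), chr11:120484537-120484636 (plus) and chr11:59202386-59202485 (plus). Capitals mark a match to the letters of NRF1 (GCGCA, any base, then GCGC), a factor known for binding promoters of nuclear genes for mitochondrial proteins.
Mrpl49: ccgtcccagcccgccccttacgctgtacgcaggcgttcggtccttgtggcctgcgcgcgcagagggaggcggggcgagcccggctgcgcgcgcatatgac
Mrpl12: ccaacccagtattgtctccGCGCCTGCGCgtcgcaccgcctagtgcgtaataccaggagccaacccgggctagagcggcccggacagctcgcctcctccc
Mrpl55: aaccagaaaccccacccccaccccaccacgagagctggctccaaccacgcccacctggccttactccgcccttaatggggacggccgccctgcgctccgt
The 3 sequences share no stretch that the motif search marked: only Mrpl12 held a match here, on the reverse strand, which begins 81 bases before the start.

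Motifs were counted over 300 bases of each RefSeq promoter, from 250 before to 50 after the start and on both strands, for 66 of the 75 genes and for 8009 of 10165 tested protein-coding genes. The NRF1 letters stood in 13 of 66 (19.7%), against 11.2% of all those promoters. CCGGAAG, the core letters bound by GABP, stood in 22 (33.3%) against 19.6%, and the letters bound by YY1 (AA, any base, then ATGGCGGC) in 7 (10.6%) against 2.83%. GGGGCGGGG, letters of an SP1 site, stood in 13 (19.7%) against 22.3%. A promoter may hold several of these motifs, and 35 of 66 (53.0%) held at least 1 of the NRF1, GABP and YY1 letters, against 30.3%. The genes with 1 of those 3 had a median log2 fold change of 0.18 and those without had 0.26, a difference that was not tested. A match is a run of letters and not a measured binding site.

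Other large-subunit genes with the largest differences had the same layout of pools. Mrpl34, a very small protein with a bacterial homologue, had the highest mean level of all. It stood at 48.9 and 43.8 FPKM in wild-type and 64.8 and 68.8 FPKM in knockout, with a log2 fold change of 0.52 ± 0.12 (SE, adjusted p = 0.0786). Mrpl4 and Mrpl22 belong to protein families that line the tunnel through which the new chain leaves. Mrpl4 was at 9.45 and 10.8 FPKM against 15.2 and 13.9 FPKM, and Mrpl22 at 18.5 and 14.98 FPKM against 24.0 and 23.8 FPKM. Mrpl18, of the family that binds 5S rRNA in other ribosomes, was at 22.8 and 18.4 FPKM against 29.8 and 29.3 FPKM. In Mrpl18 and Mrpl22 the wild-type pools were farther apart than the knockout pools, and the adjusted p of both was 0.107.

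A further pair of large-subunit genes, both with a bacterial homologue, was among the 5 highest by mean level. Mrpl14, at the face that meets the small subunit, stood at 37.5 and 34.98 FPKM in wild-type and 46.8 and 50.8 FPKM in knockout (log2 fold change 0.42, adjusted p = 0.103). Mrpl16, near the site of peptide bond formation, stood at 36.3 and 39.6 FPKM against 49.6 and 43.9 FPKM (log2 fold change 0.30, adjusted p = 0.207). Both had separate groups, with knockout pools farther apart for Mrpl16. Mrpl32, which must be cut by an inner-membrane protease before it joins the ribosome, gave no separation. Its pools were at 4.86 and 4.05 FPKM in wild-type and 4.47 and 4.74 FPKM in knockout, with a 95% confidence interval of the log2 fold change from -0.30 to 0.40.

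**Figure D2:**
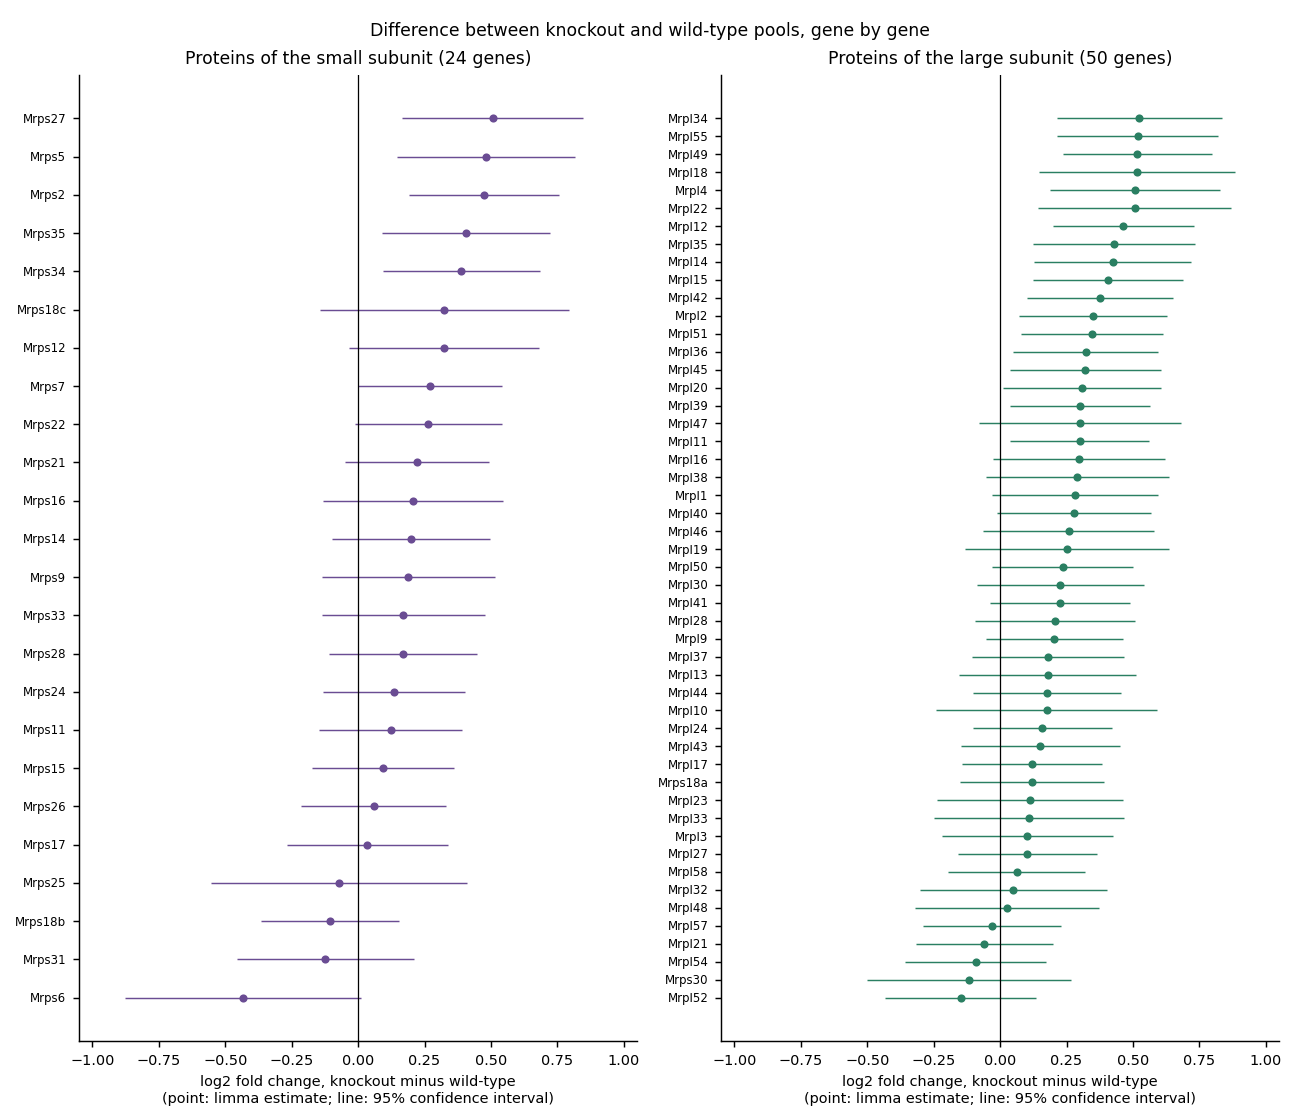
Log2 fold change, knockout minus wild-type, for the 24 tested proteins of the small subunit (left) and the 50 of the large subunit (right), with points for limma estimates and lines for 95% confidence intervals. Mrps36, counted in neither subunit, is not drawn. Most points lie right of 0. Of all 75 intervals, that of the undrawn Mrps36 included, 24 lie wholly above 0 and 0 wholly below it.

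The proteins of the small subunit, which binds the mRNA and reads the codons, gave 24 tested genes with a median log2 fold change of 0.19. Of these, 5 were higher at an unadjusted p under 0.05 and 0 lower, against 12.7% and 14.4% of all tested genes. In 18 of the 24 both knockout pools were above both wild-type pools, against 31.6% of all. Summed FPKM of this subunit were 331 and 325 in wild-type and 371 and 380 in knockout. For the large subunit they were 897 and 868 against 1056 and 1055. Both subunits therefore had knockout sums above wild-type sums. Mrps18a and Mrps30 are counted with the large subunit, where their proteins sit despite their names. Split by name, the 27 tested Mrps genes had a median of 0.19 and the 48 tested Mrpl genes one of 0.26.

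Mrps27, a mitochondria-specific protein with RNA-binding repeats, stood at 10.3 and 11.1 FPKM in wild-type and 14.1 and 16.7 FPKM in knockout. The groups did not overlap, and its log2 fold change of 0.51 ± 0.13 (SE, adjusted p = 0.0974) was the largest of the small subunit. Mrps5, whose bacterial homologue affects the accuracy of decoding, stood at 5.55 and 4.95 FPKM against 8.03 and 7.02 FPKM. Mrps12, at the decoding site itself, stood at 28.8 and 25.6 FPKM against 31.4 and 37.0 FPKM (log2 fold change 0.32, adjusted p = 0.213). Its lowest knockout pool was above its highest wild-type pool by less than the distance between the 2 knockout pools. Mrps35, a mitochondria-specific protein and the fifth lowest by level, stood at 2.65 and 2.61 FPKM against 3.75 and 3.55 FPKM. Mrps36, now assigned to the 2-oxoglutarate dehydrogenase complex and counted in neither subunit, stood at 5.01 and 5.09 FPKM against 6.61 and 6.96 FPKM.

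A few genes lay lower in the knockout, and none of these passed the test. Mrps6, the small-subunit homologue of bacterial S6, had the lowest log2 fold change, -0.43 ± 0.17 (SE, adjusted p = 0.192). It stood at 16.9 and 18.7 FPKM in wild-type and 11.3 and 15.01 FPKM in knockout, so its groups did not overlap. On chromosome 16 it overlaps Slc5a3, a myo-inositol transporter on the same strand, at 3.22 and 2.61 FPKM against 1.18 and 2.06 FPKM. The deposited values cannot tell which of the overlapping genes reads came from.

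Mrpl52 and Mrpl54, both mitochondria-specific proteins of the large subunit and highly expressed, also had knockout pools below wild-type pools. Mrpl52 was at 60.4 and 58.4 FPKM in wild-type and 55.5 and 51.7 FPKM in knockout (log2 fold change -0.15, adjusted p = 0.424). Mrpl54 was at 40.7 and 41.4 FPKM against 39.0 and 38.0 FPKM (log2 fold change -0.09, adjusted p = 0.593). Mrps18b, one of 3 relatives of bacterial S18, was at 20.8 and 21.2 FPKM against 19.1 and 19.8 FPKM, and Mrpl21 at 11.8 and 11.9 FPKM against 11.4 and 11.3 FPKM. In these 4 genes the separation was small, and the confidence intervals of all of them included 0. Mrps31, Mrps30 and Mrps25 also had log2 fold changes under 0, of -0.12, -0.12 and -0.07, with overlapping groups.

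Among the 3 genes below the filter, Mrps23 stood at 0.265 and 1.30 FPKM in wild-type and 0.647 and 0.972 FPKM in knockout, from 7, 32, 18 and 26 reads. Mrps10 and Mrpl53 were listed at 0 in all 4 libraries. Both encode ribosomal proteins of the organelle that most cells use, and no statement on their expression can be made from these values.

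The level of the tested genes spanned 30.01-fold, from Mrps25 at a mean of 1.89 FPKM to Mrpl34 at 56.6 FPKM. Mrpl34, Mrpl52, Mrpl12, Mrpl14 and Mrpl16 were highest, and Mrps25, Mrpl48, Mrpl33, Mrps30 and Mrps35 were lowest. The order followed the listed gene length, which ran from 607 bases to 8631 bases over the 78 genes. Across the 75 tested genes Spearman's rho between length and mean FPKM was -0.81, a description over genes that share libraries. FPKM is divided by this length, so levels between these genes depend on how it was counted. The fold changes followed length and level far less, with rho of -0.20 and 0.20.

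**Figure D3:**
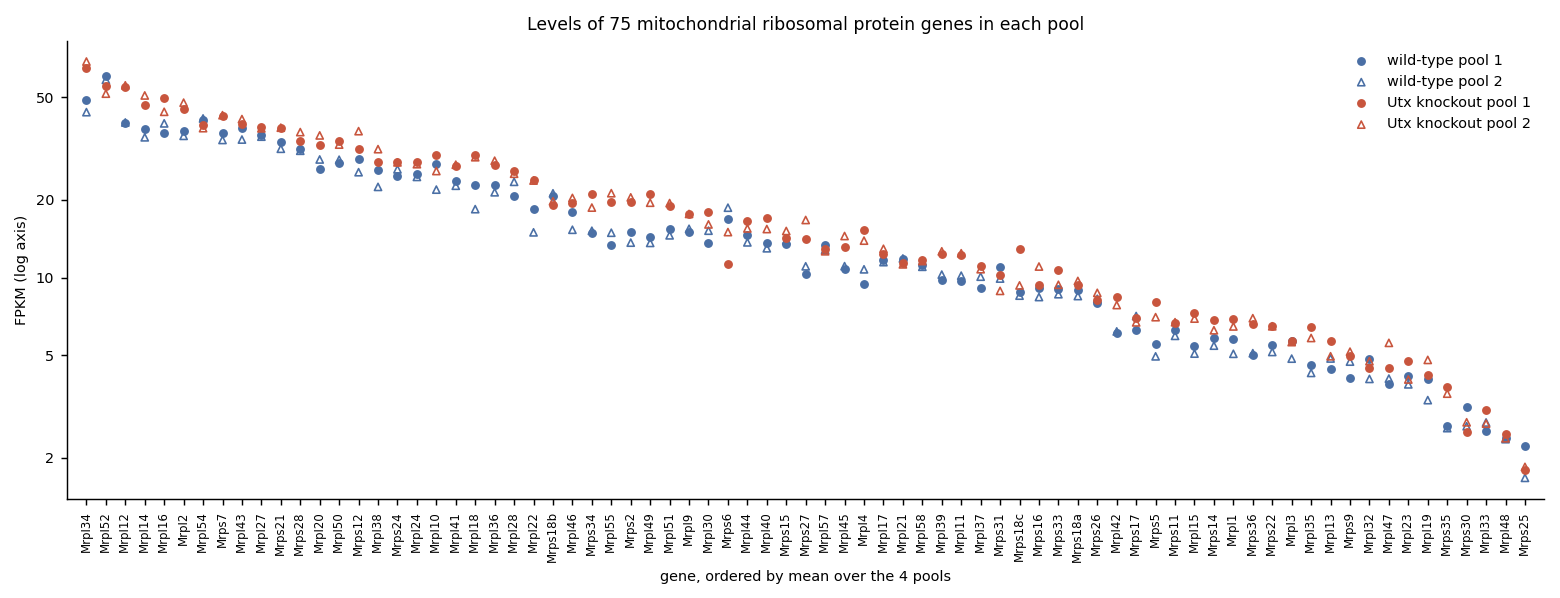
FPKM on a log axis of each of the 75 tested mitochondrial ribosomal protein genes, ordered by mean level, in wild-type (blue) and knockout (red) pools, filled circles for pools numbered 1 and open triangles for pools numbered 2. Levels run from 1.89 FPKM (Mrps25) to 56.6 FPKM (Mrpl34) as means, and red points lie above blue ones for most genes, with Mrpl52, Mrpl54 and Mrps6 among the exceptions.

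Of the 78 genes, 41 overlapped another listed gene, 35 of them on the opposite strand, and strand marking is not stated. The median log2 fold change was 0.24 over the 35 tested genes without an overlap and 0.18 over the 40 with one. The genes lay on 17 chromosomes, so no single region held the set.

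Many of these genes start back to back with a neighbour. A protein-coding gene on the opposite strand started within 500 bases for 25 of the 75 (33.3%), against 14.0% of all 10165 tested protein-coding genes. Mrpl46 and Mrps11 face each other. Of the 18 tested partners outside the set, 12 had a log2 fold change above 0, against 51.4% of all tested genes. Their median was 0.10, against 0.25 for the ribosomal protein genes they face. Mrpl43 faces Twnk, the mitochondrial DNA helicase. Twnk rose, from 6.66 and 7.24 FPKM to 13.2 and 12.7 FPKM (log2 fold change 0.85, adjusted p = 0.0350), with the starts 116 bases apart. Leaving out any 1 of the 4 libraries ended that call (adjusted p from 0.0802 to 0.131). Mrpl43 itself was at 38.2 and 34.3 FPKM against 39.4 and 41.2 FPKM (log2 fold change 0.15, adjusted p = 0.436).

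The other called partner was Ppp1r10, a regulatory subunit of protein phosphatase 1, which faces Mrps18b across 45 bases. It fell, from 18.8 and 16.5 FPKM to 6.57 and 8.97 FPKM (log2 fold change -1.15, adjusted p = 0.0474), while Mrps18b had a log2 fold change of -0.11. The call of Ppp1r10 was lost without either wild-type pool or without knockout pool 1 (adjusted p from 0.0963 to 0.122) and kept without knockout pool 2. Mrpl49 faces Fau, which encodes a cytosolic ribosomal protein fused to a ubiquitin-like protein. Fau stood at 398 and 416 FPKM in wild-type and 409 and 391 FPKM in knockout, with overlapping groups, beside the separated groups of Mrpl49. Mrps27 faces Ptcd2, a mitochondrial RNA-binding protein, at 12.5 and 14.1 FPKM against 18.6 and 20.4 FPKM (log2 fold change 0.54, adjusted p = 0.0786). These 4 pairs were picked after their values were seen, so they show that partners can lie on either side of 0, and no rate.

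The rest of the mitoribosome and its supply were read from lists of related genes. The 5 mitoribosome proteins with other names had 0 called and a median log2 fold change of 0.15. Ptcd3, a small-subunit protein with RNA-binding repeats, stood at 5.06 and 5.28 FPKM in wild-type and 6.85 and 6.74 FPKM in knockout (log2 fold change 0.36, adjusted p = 0.113). Chchd1 had a log2 fold change of 0.27, Aurkaip1 one of 0.15, Dap3 one of 0.09 and Gadd45gip1 one of 0.08, the last 3 with overlapping groups.

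Of 29 tested genes for assembly of the mitoribosome and modification of its rRNA, 0 were called and the median was 0.18. At an unadjusted p under 0.05, 10 were higher and 0 lower, against 12.7% and 14.4% of all tested genes. Tfb1m, which methylates the small-subunit rRNA, stood at 3.48 and 4.31 FPKM in wild-type and 6.38 and 6.86 FPKM in knockout (log2 fold change 0.70 ± 0.14 SE, adjusted p = 0.0662). Mettl17, a methyltransferase-like protein of small-subunit assembly, had a log2 fold change of 0.51, and Rpusd3, a pseudouridine synthase of the large-subunit rRNA, one of 0.59. In all 3 both knockout pools were above both wild-type pools.

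Of 15 tested mitochondrial translation factors, 0 were called and 10 were higher at an unadjusted p under 0.05, against 12.7% of all tested genes. All 15 had a log2 fold change above 0, with a median of 0.42. Taco1, an activator of Cox1 translation, stood at 10.9 and 10.3 FPKM in wild-type and 17.7 and 15.8 FPKM in knockout (log2 fold change 0.64, adjusted p = 0.0544). Gfm1, the elongation factor that moves the ribosome along the mRNA, stood at 16.9 and 18.98 FPKM against 26.9 and 26.6 FPKM (log2 fold change 0.56, adjusted p = 0.0639). Taco1 and Gfm1 were each called in 3 of 18 alternative settings. Gfm2, which recycles ribosomes, had a log2 fold change of 0.58, and Mtif2, the initiation factor, one of 0.42. Tufm, the elongation factor that delivers tRNAs, stood at 40.3 and 37.9 FPKM against 50.3 and 50.4 FPKM. Its exchange factor Tsfm and the mRNA-binding Lrpprc had log2 fold changes of 0.22 and 0.19. Among the 20 mitochondrial aminoacyl-tRNA synthetases and amidotransferase subunits, 0 were called, 4 were higher at an unadjusted p under 0.05, and the median was 0.22, with Gatb at 0.46, Rars2 at 0.44 and Aars2 at 0.36.

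**Figure D4:**
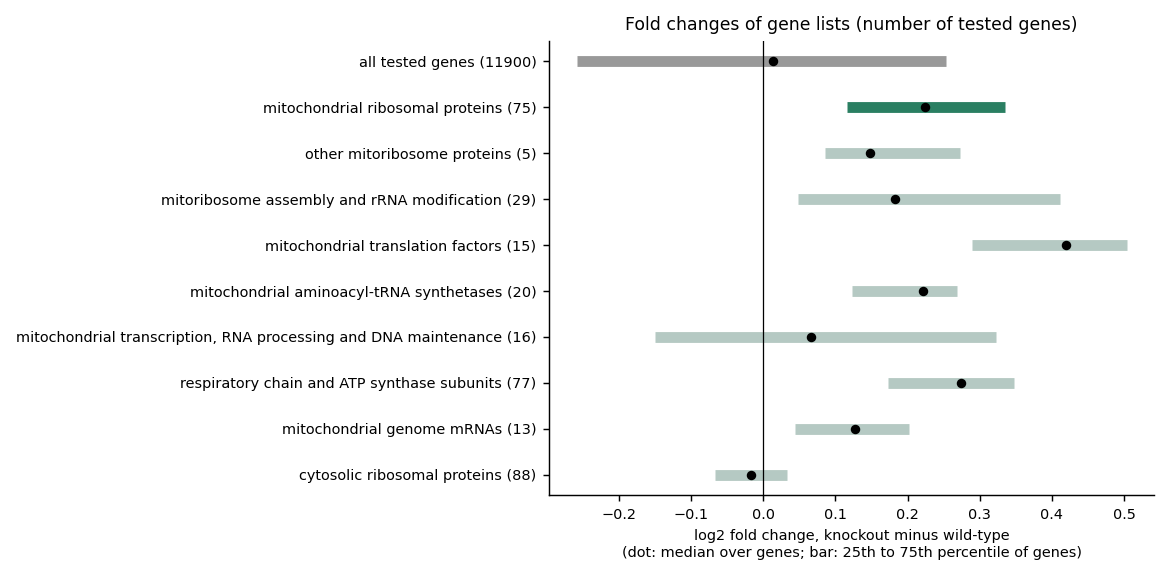
Median (dot) and middle 50% (bar) of the log2 fold changes, knockout minus wild-type, over the tested genes of each list, with the number of genes in parentheses. Medians were 0.22 for the mitochondrial ribosomal proteins, 0.42 for the translation factors, 0.27 for the respiratory chain, -0.02 for the cytosolic ribosomal proteins and 0.01 for all tested genes.

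The cytosolic ribosomal proteins, which build the ribosomes outside the organelle, lay close to 0. Of 88 tested, 0 were called and the median log2 fold change was -0.02. At an unadjusted p under 0.05, 0 were higher and 2 lower, against 12.7% and 14.4% of all tested genes. Both knockout pools were above both wild-type pools for 10 of them (11.4%) and below for 17 (19.3%), against 31.6% and 29.9% of all. The list holds rows with pseudogene or paralogue names that the table gives as protein-coding, and without these the median was -0.02 over 78 genes, with 0 called. The nuclear-encoded subunits of the respiratory chain and ATP synthase had a median of 0.27 over 77 tested genes, with 0 called, 13 higher at an unadjusted p under 0.05 and 0 lower. Knockout pools were above wild-type pools for 51 of these (66.2%) and below for 0, against the same 31.6% and 29.9% of all. Ndufs7, a subunit of complex I, stood at 38.3 and 37.5 FPKM in wild-type and 55.5 and 53.7 FPKM in knockout (log2 fold change 0.52, adjusted p = 0.0631). Ndufs1 of the same complex had a log2 fold change of 0.52, and Cox6b2, an isoform of a cytochrome oxidase subunit, one of 1.10 with knockout pools at 14.4 and 7.48 FPKM. The 13 mRNAs of the mitochondrial genome had a median of 0.13, 0 called, and separate groups in 2. The groups overlapped for the other 11, against 4580 of all 11900 tested genes. Mean levels of these mRNAs ran from 5.76 FPKM for mt-Atp8, on 10, 25, 23 and 21 reads, to 8432 FPKM for mt-Co1. Their median fold change was that of mt-Co3, at a mean of 26.5 FPKM, so it rests on an mRNA of the low end.

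The rRNAs that these proteins bind lay the other way. The small-subunit rRNA mt-Rnr1 stood at 892 and 1224 FPKM in wild-type and 429 and 582 FPKM in knockout (log2 fold change -1.06 ± 0.25 SE, adjusted p = 0.0868). The large-subunit rRNA mt-Rnr2 stood at 976 and 945 FPKM against 422 and 599 FPKM (log2 fold change -0.93 ± 0.22 SE, adjusted p = 0.0854). Neither passed the test, and both had separate groups. Libraries were made from RNA selected for poly(A) tails, so these values follow the tailed or carried-over part of the rRNA and are no measure of its amount.

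Of the 16 tested genes for transcription, RNA processing and DNA maintenance in mitochondria, 1 rose and 1 fell, and the median was 0.07. Twnk is the one that rose, with values as above. Polg2, the accessory subunit of the mitochondrial DNA polymerase, fell from 3.77 and 3.65 FPKM to 1.67 and 1.14 FPKM (log2 fold change -1.16, adjusted p = 0.0494). Leaving out any 1 library ended the call of Polg2 (adjusted p from 0.0882 to 0.139). Tefm, the elongation factor of the mitochondrial RNA polymerase, had a log2 fold change of 0.45 (adjusted p = 0.0782), the polymerase Polrmt one of 0.20 and the DNA-packaging factor Tfam one of -0.27. The members of this list thus lay on both sides of 0.

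Of the 8 tested nuclear regulators known to act on mitochondrial genes, 1 fell, 0 rose, and the median log2 fold change was -0.28. Myc, a transcription factor that drives growth and ribosome production, fell from 55.6 and 71.7 FPKM to 22.8 and 29.1 FPKM (log2 fold change -1.28, adjusted p = 0.0443). That call too was lost without any 1 of the libraries (adjusted p from 0.0619 to 0.136). Esrra, a nuclear receptor known to bind genes of energy metabolism, stood at 13.7 and 12.8 FPKM in wild-type and 18.4 and 20.3 FPKM in knockout (log2 fold change 0.53, adjusted p = 0.0721). Its coactivator Ppargc1a stood at 3.29 and 2.77 FPKM against 1.97 and 2.16 FPKM (log2 fold change -0.46, adjusted p = 0.144). The calls of Twnk and Myc were lost in 7 of 18 alternative settings each, and that of Polg2 in 11 of 17. Among 11 mitochondrial chaperones and proteases 0 were called, 6 had a log2 fold change above 0, and the median was 0.15. Dnaja3 was at 0.44, Trap1 at 0.32 and Lonp1 at -0.34. Hspe1 and Hspd1, both with overlapping groups, were at -0.70 and -0.50.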

How the data were processed

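RNA sequencing was done on poly(A)-selected liver RNA, per the labels' protocols, in 2 wild-type and 2 Utx knockout libraries. The authors deposited FPKM for 54149 genes, with gene lengths and coordinates per the file headers. Per the submitters' processing notes, HISAT2 2.0.5 aligned the reads, and the build was mm10 (GRCm38.p6). No counting program, annotation release or strand setting was given in the sources used here. All 4 sample columns were used and 0 were left out. FPKM times length gave whole reads for 100% of values within 0.01 read. The authors' totals were 0.943 to 1.05 times the recovered sums, and below the recovered sum in wild-type pool 2. Median-of-ratios factors, which compare libraries over genes measured in all of them, were 1.003 in every library. The deposited FPKM had therefore already been scaled between libraries.

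FPKM were tested as log2(FPKM + 0.5), which understates changes of low genes, with limma 3.58.1 in R 4.3.3 (lmFit, eBayes with trend, two-sided) over the 11900 genes whose mean reached 1 FPKM. Calls needed a Benjamini-Hochberg adjusted p under 0.05. Residual degrees of freedom were 2 and prior ones 2.59. It called 190 genes higher and 374 lower, or 211 and 255 after rescaling to recovered reads and 408 and 606 with protein-coding genes alone. It was tested on simulated data with known changes, all larger than those of the mitochondrial ribosomal protein genes. That check therefore does not cover differences of the size seen in these genes.

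The members and the related lists were chosen with earlier results of these data known, so they have no set test and are given as counts and medians. The rule for named genes took every called member, the 8 largest and 8 smallest log2 fold changes, the 5 highest and 5 lowest levels, members below the filter, Mrpl12, Mrps12 and Mrpl32, and of each related list up to 3 genes with the smallest p, with a few fixed genes. Other members, neighbours and chaperones named were chosen after their values were seen. Subunit and bacterial homology came from a table written by hand from general knowledge. Kinases and a binding protein caught by the name pattern of cytosolic ribosomal proteins were left out, and pseudogene-named rows listed as protein-coding were kept. Promoters came from RefSeq (GRCm38.p6) and were matched by symbol. Alternatives covered pseudocount, filter, scaling, limma variant, voom on recovered reads with a mean of at least 50, biotype, gene length, a replicate block and leaving out each library. GC content and a crossed pairing were added after seeing the data.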

Additional observations from a re-analysis of the deposited data

How the results depend on the processing

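Over 18 alternative settings the median log2 fold change of the mitochondrial ribosomal protein genes ran from 0.20 to 0.29, and the genes above 0 were 65 to 68 of 75, 57 of 64 at a filter of 5 FPKM and 67 of 76 without a filter. The median was 0.29 with FPKM rescaled to recovered reads, which undoes the authors' scaling between libraries, and the median of all tested genes was then 0.07. Median-of-ratios scaling could change almost nothing, since its factors were 1.003 in every library. Voom took the authors' totals as library sizes, so neither of these settings varied the scaling. With protein-coding genes alone 1 gene of the 75 was called higher (Mrpl49), in a fit that called 408 higher and 606 lower of 10165 genes. In the other settings 0 were called in either direction. Leaving out 1 library at a time gave medians of 0.21 to 0.25 and 0 calls; the lone pool of a group was then assumed to vary like the others. The number higher at an unadjusted p under 0.05 ran from 7, without wild-type pool 2 or without knockout pool 1, to 30 without a filter; at most 1 gene was lower. That unfiltered fit called 0 of all 26643 genes.

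With a replicate block, 0 genes were called, 13 were higher and 1 lower at an unadjusted p under 0.05, the median was 0.22 and the smallest adjusted p was 0.144; over all genes the block called 74 higher and 236 lower. Deviations of same-numbered pools correlated at -0.14, and the labels do not say what a number marks. A crossed pairing called 0 of the genes, and 213 higher and 339 lower over all genes. Some signs of near-zero differences turned. Leaving out 1 library, Dap3 ran from -0.019 (without knockout pool 1) to 0.19, Mrpl32 from -0.069 (without wild-type pool 2) to 0.17 and Mrps25 from -0.24 to 0.093 (without wild-type pool 1). Fau ran from -0.058 to 0.0070 (above 0 without either wild-type pool 2 or knockout pool 2). After rescaling to recovered reads Mrpl21 was at 0.0022 and Fau at 0.038; the cause was not tested. With 2 pools per group, differences under about 0.30 on the log2 scale lie within the interval of a typical gene.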
